A study of Mus musculus with 90 samples.

Results

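The PARP system was followed in mouse tumour cells exposed to interferon-gamma (IFNγ) through 10 genes, which were Parp14, Parp9, Dtx3l, Parp10, Parp11, Parp12, Zc3hav1, Parp3, Parp8 and Parp1. They were taken by symbol from the raw count matrix, and all 10 were found among its 53697 genes. The cells were YUMM2.1, a mouse melanoma line, and CT26, a mouse colon carcinoma line. Each line was kept with 50 IU/mL IFNγ, or with bovine serum albumin (BSA, 0 IU/mL IFNγ) as the control, for 0, 1, 2 or 3 weeks. At each time the cells were either collected as they were (0 h) or given fresh IFNγ and collected 2 h or 24 h later, so that cells first treated at 0 weeks were naive to IFNγ and those treated at 1 to 3 weeks were rechallenged. Each line had 15 groups of 3 samples, which came to 12 control samples and 33 IFNγ samples. Cells were replated for the last 48 h of the protocol. Both lines were cultured without other cells, and each stands for 1 tumour cell line rather than a tumour. The labels did not say whether the 3 samples of a group were separate cultures, so p-values measure the spread between these samples.

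PARP proteins transfer ADP-ribose from NAD to proteins and nucleic acids, either as single units or as chains. Parp1 is the main chain-forming member and acts at broken DNA, and Parp3 also responds to DNA breaks. Parp14 and Parp9 carry macrodomains, which bind ADP-ribose, and Parp9 works in a complex with the ubiquitin ligase Dtx3l. Parp10, Parp11, Parp12 and Parp8 belong to the branch that attaches single ADP-ribose units, while Zc3hav1 is an antiviral RNA-binding protein with an inactive PARP domain. Many of these genes are known targets of interferon, and GAS and ISRE elements are DNA motifs known from promoters that interferon induces.

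Parp14, Dtx3l and Parp9 were neighbours on chromosome 16 (GRCm38, GENCODE annotation). Parp14 lay at chr16:35832874-35871544 on the minus strand. A gap of 54966 bases separated it from Dtx3l at chr16:35926511-35939151, also on the minus strand. Parp9 lay at chr16:35938470-35972605 on the plus strand, and its start overlapped that of Dtx3l by 682 bases. Parp12 (chr6:39086410-39118349, minus strand), Zc3hav1 (chr6:38305286-38354603, minus strand) and Parp11 (chr6:127446840-127494261, plus strand) were on chromosome 6. Parp10 was at chr15:76231174-76243441 on the minus strand and Parp3 was at chr9:106470322-106476949 on the minus strand. Parp8 was at chr13:116854820-117025537 on the minus strand and Parp1 was at chr1:180568924-180601254 on the plus strand.

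The RefSeq table of promoter windows (GRCm38.p6, 300 bases, 250 before the start site and 50 after it) held 7 of the 10 members. Parp14, Parp9 and Parp10 had no entry. The windows were searched on both strands for a GAS motif, TTCNNNGAA, and for an ISRE core, which is GAAA, any 2 bases and GAAA (on the other strand TTTC, any 2 bases and TTTC). Across 32817 promoters of the same length, 8.29% held the first and 3.43% held the second. Among the members' windows, the upstream window of Parp11 held both, and the others held neither. The 4 windows below are shown because Parp11 has a window with both motifs and another without them, Dtx3l shares its 5′ end with Parp9, and Parp1 is the reference member. They are written 5′ to 3′ on the strand of the gene, and the capitals mark the ISRE core TTTCGATTTC, which starts 44 bases before the start site, and the GAS motif TTCTTGGAA, which starts 37 bases before it and overlaps the ISRE core.
Parp11, upstream window, chr6:127446590-127446889, plus strand: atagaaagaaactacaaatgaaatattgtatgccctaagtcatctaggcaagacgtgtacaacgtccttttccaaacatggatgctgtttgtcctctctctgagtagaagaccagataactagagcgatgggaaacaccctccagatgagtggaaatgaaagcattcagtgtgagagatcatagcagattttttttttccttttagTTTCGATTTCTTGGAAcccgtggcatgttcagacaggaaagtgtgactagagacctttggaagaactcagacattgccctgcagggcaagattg
Parp11, downstream window, chr6:127453377-127453676, plus strand: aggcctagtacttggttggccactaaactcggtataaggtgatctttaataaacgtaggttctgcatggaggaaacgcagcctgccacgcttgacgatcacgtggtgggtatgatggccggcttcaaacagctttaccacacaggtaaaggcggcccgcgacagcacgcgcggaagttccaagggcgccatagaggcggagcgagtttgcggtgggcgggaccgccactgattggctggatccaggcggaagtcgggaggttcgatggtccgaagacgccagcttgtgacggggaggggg
Dtx3l, chr16:35938978-35939277, minus strand: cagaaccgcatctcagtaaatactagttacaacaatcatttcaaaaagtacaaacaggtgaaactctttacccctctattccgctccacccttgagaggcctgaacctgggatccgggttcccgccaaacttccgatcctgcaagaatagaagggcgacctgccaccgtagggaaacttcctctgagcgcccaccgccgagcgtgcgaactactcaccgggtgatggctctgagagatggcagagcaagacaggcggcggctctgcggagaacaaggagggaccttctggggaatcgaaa
Parp1, chr1:180568641-180568940, plus strand: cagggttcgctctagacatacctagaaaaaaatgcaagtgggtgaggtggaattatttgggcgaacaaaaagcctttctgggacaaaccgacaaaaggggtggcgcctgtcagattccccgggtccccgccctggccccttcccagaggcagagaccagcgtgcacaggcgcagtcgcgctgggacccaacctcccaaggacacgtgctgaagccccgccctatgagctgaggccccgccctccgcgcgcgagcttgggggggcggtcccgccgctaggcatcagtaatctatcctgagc
A match describes the letters of a window, not binding, and the files held no binding data.

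The measure was a 3′ count of reads per gene, given below as CPM, the counts of a gene relative to the library size, on library sizes scaled by the trimmed mean of M-values (TMM). Totals were 274719 to 3161276 counts in YUMM2.1 (median 1403265) and 295157 to 2205285 in CT26 (median 1318011). The third replicates of YUMM2.1 at 3 weeks of IFNγ (0 h) and of CT26 at 1 week and 3 weeks of IFNγ (0 h) had less than 25% of the median total of their line. Several members had few counts, so 1 read was worth up to several CPM in these samples. The melanocyte gene Sox10 was read in 45 of 45 YUMM2.1 samples (median 26.9 CPM), but the other melanocyte genes were sparse there. Mitf was read in 38 of these samples and Dct in 25. Pmel, Tyr and Mlana had 19, 15 and 1 counts over all 45, and the pigment gene Tyrp1 was at 0. In CT26 the keratins Krt18 and Krt20 were read in 45 of 45 samples, but Epcam, Cdh1, Krt19 and Vil1 were at 0. Of 5 leukocyte markers, 3 were at 0 in every YUMM2.1 sample and 4 in every CT26 sample. The leukocyte gene Ptprc was read in 31 of 45 CT26 samples, and the melanocyte genes Mitf and Dct in 39 and 38. The endothelial gene Pecam1 was read in every sample (YUMM2.1 median 352 CPM, CT26 median 275 CPM), although Cdh5 and Kdr had medians of 0. The fibroblast gene Col1a2 was also read in every sample, while Pdgfra, Dcn and Lum had medians of 0 in each line. Irf1, a transcription factor gene that responds to IFNγ directly, was higher in all 33 IFNγ samples than in all 12 control samples of each line.

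In all, 8 members were higher with IFNγ in both lines when the mean of the 11 IFNγ groups was set against the mean of the 4 control groups, a comparison added after the data had been seen. They were Parp14, Parp9, Dtx3l, Parp10, Parp11, Parp12, Zc3hav1 and Parp3. The test was edgeR's quasi-likelihood test on all genes with Benjamini-Hochberg adjustment, and a gene was called at an adjusted p below 0.05. Of all genes tested, 5.38% were called higher in YUMM2.1 and 6.29% in CT26. The size of the rise differed widely among the members. In YUMM2.1, Parp14 rose 10.4-fold (log2 3.39 ± 0.26, SE, adjusted p = 1.1e-14) and Dtx3l rose 9.1-fold (log2 3.19 ± 0.33, adjusted p = 1.83e-10). Parp12 rose 7.38-fold (log2 2.88 ± 0.33) and Parp9 rose 6.56-fold (log2 2.71 ± 0.18). These members are the macrodomain PARPs, the partner ligase and a zinc finger PARP. Parp10 (2.77-fold), Parp11 (2.74-fold), Zc3hav1 (1.89-fold) and Parp3 (1.59-fold) rose by less.

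In CT26, Parp14 again had the largest fold change of the members, 17.2-fold (log2 4.11 ± 0.44, SE, adjusted p = 9.33e-10, edgeR). Parp12 rose 6.27-fold (log2 2.65 ± 0.33), Parp9 rose 5.15-fold (log2 2.36 ± 0.18) and Dtx3l rose 4.34-fold (log2 2.12 ± 0.25). Parp10 and Parp11, which attach single ADP-ribose units, both rose 4.16-fold. Zc3hav1 rose 2.05-fold (log2 1.03 ± 0.13) and Parp3 rose 1.98-fold (log2 0.98 ± 0.17). Parp1, the chain-forming member, did not pass the test in YUMM2.1 (log2 0.07 ± 0.05, adjusted p = 0.45). In CT26 Parp1 was lower by a small amount, 0.872-fold (log2 -0.20 ± 0.06, adjusted p = 0.0166), where 7.87% of all genes were called lower. That call was lost when library totals alone set the scale (log2 -0.11, adjusted p = 0.174), and without replicate 1 (adjusted p = 0.126) or replicate 2 (adjusted p = 0.194). The YUMM2.1 calls of Parp10 (adjusted p = 0.149) and Zc3hav1 (adjusted p = 0.0993) were lost without replicate 1. Because the cells were measured in bulk, a change in the share of cells with a transcript and a change per cell cannot be told apart.

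**Figure D1:**
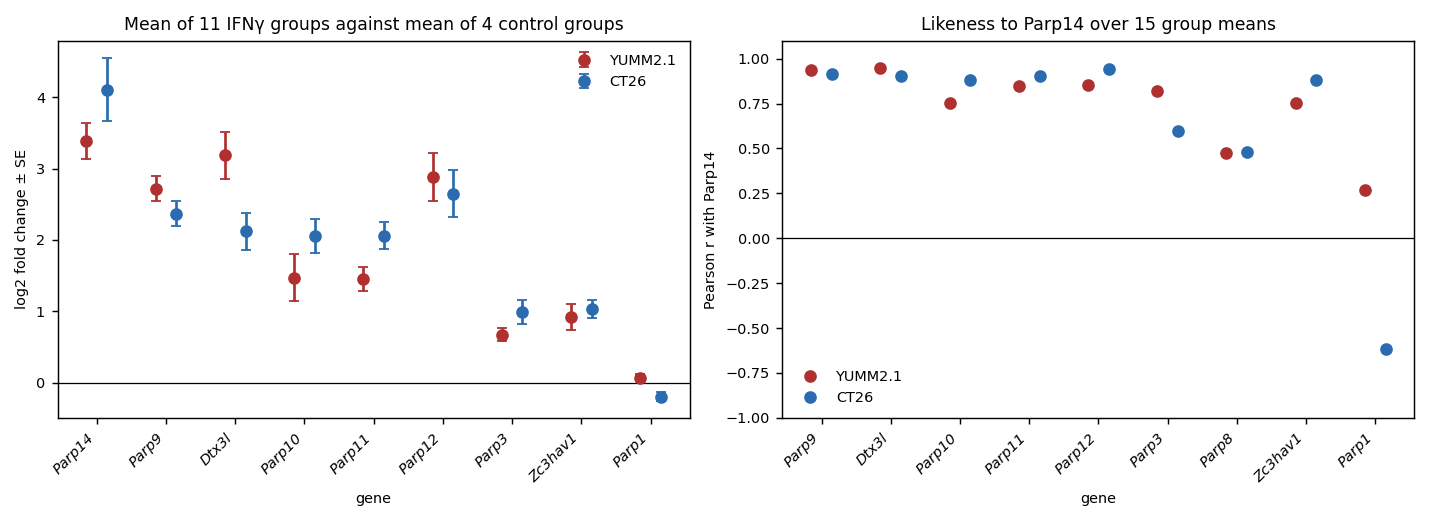
The left panel plots the log2 fold change of each tested member (mean of 11 IFNγ groups against mean of 4 control groups, bars are SE) in YUMM2.1 and CT26, and the right panel plots Pearson's r of each member with Parp14 over 15 group means. Parp14 has the largest fold change of the members in both lines (log2 3.39 and 4.11), and Parp1 lies near 0.

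Parp14 had very few reads in control cells. In YUMM2.1 its 12 control samples ran from 0 to 3.2 CPM with a median of 1.19 CPM, and its 33 IFNγ samples ran from 2.62 to 57.7 CPM with a median of 10.0 CPM. Of these 33, 32 lay above every control sample. At 0 weeks Parp14 read 1.62, 1.21 and 1.92 CPM in controls, 7.51, 9.43 and 8.84 CPM after 2 h of IFNγ, and 10.0, 17.3 and 5.05 CPM after 24 h. All naive IFNγ samples were thus above all 0-week controls. After 1 week without rechallenge Parp14 read 5.02, 6.6 and 4.22 CPM, and rechallenge took it to 24.0, 21.2 and 22.9 CPM at 2 h and to 18.3, 22.3 and 37.6 CPM at 24 h. After 2 weeks it read 6.48, 8.02 and 8.18 CPM at 0 h, 14.6, 18.3 and 19.3 CPM at 2 h, and 9.25, 24.8 and 16.3 CPM at 24 h. After 3 weeks it read 5.45, 3.97 and 13.9 CPM at 0 h, the last of these from the sample of low total. The group with the highest mean Parp14 level of the line was that 2 h after rechallenge at 3 weeks (30.8, 57.7 and 37.9 CPM), which overlapped the 24 h group at 1 week. By 24 h after rechallenge at 3 weeks it read 2.62, 8.05 and 6.27 CPM. The last group overlapped the group at 3 weeks without rechallenge.

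In CT26, Parp14 was at 0 in 6 of 12 control samples and did not exceed 1.86 CPM in the others, against a median of 10.3 CPM in IFNγ samples (0 to 39.5 CPM). Naive cells read 4.48, 5.12 and 0.663 CPM after 2 h, so that 1 sample lay among the controls, and 9.82, 15.2 and 12.5 CPM after 24 h. At 1 week without rechallenge Parp14 read 0.707, 0 and 6.26 CPM, the last from the sample of low total. Rechallenge at 1 week gave 12.5, 14.3 and 7.52 CPM at 2 h and 19.1, 7.46 and 20.3 CPM at 24 h, all above the 0 h samples. At 2 weeks Parp14 read 4.43, 2.83 and 8.02 CPM at 0 h, 4.52, 6.11 and 8.16 CPM at 2 h and 14.0, 6.94 and 10.6 CPM at 24 h, and these ranges overlapped. At 3 weeks Parp14 read 19.1, 16.7 and 26.5 CPM without rechallenge, 13.5, 39.5 and 12.7 CPM at 2 h and 10.3, 11.1 and 17.5 CPM at 24 h. The 3 groups at 3 weeks overlapped, and the group at 0 h was above all samples at 2 weeks and 0 h.

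Parp9 was read in every sample of both lines. Its YUMM2.1 controls ran from 1.21 to 5.42 CPM (median 2.8) and its IFNγ samples from 5.08 to 52.5 CPM (median 21.2), with 31 of 33 above every control. Naive YUMM2.1 cells read 5.3, 5.08 and 11.8 CPM for Parp9 at 2 h and 21.2, 14.2 and 18.5 CPM at 24 h, so that only the later time was clear of the 0-week controls (5.42, 1.21 and 2.56 CPM). Without rechallenge Parp9 read 8.03, 9.91 and 6.33 CPM at 1 week, 18.2, 20.5 and 13.0 CPM at 2 weeks, and 25.5, 24.8 and 10.4 CPM at 3 weeks. These groups were all above the control samples of their own week. Rechallenge at 3 weeks gave 47.6, 52.5 and 42.9 CPM at 2 h and 13.1, 13.0 and 12.0 CPM at 24 h, and these groups did not overlap.

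In CT26, Parp9 ran from 1.46 to 6.84 CPM in controls (median 4.45) and from 3.31 to 49.6 CPM in IFNγ samples (median 23.8). Naive cells read 5.12, 5.12 and 3.31 CPM at 2 h, within the range of all controls, and 13.7, 33.7 and 32.4 CPM at 24 h. Parp9 therefore separated from the controls between these times. Without rechallenge it read 19.8, 5.35 and 37.6 CPM at 1 week, the second of these within the 1-week controls. It read 15.1, 9.42 and 12.0 CPM at 2 weeks and 36.5, 39.0 and 49.6 CPM at 3 weeks. At 3 weeks, Parp9 with rechallenge (34.1, 20.8 and 28.0 CPM at 2 h, 36.0, 31.3 and 34.9 CPM at 24 h) did not exceed Parp9 without it.

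Dtx3l, the ligase that pairs with Parp9, was read at 0 to 3.64 CPM in YUMM2.1 controls (median 1.46) and at 2.21 to 51.2 CPM in IFNγ samples (median 11.2). Its 2-week controls held a sum of 1 count over 3 samples. Naive YUMM2.1 cells read 7.07, 16.0 and 2.21 CPM for Dtx3l at 2 h and 14.5, 10.2 and 8.0 CPM at 24 h, and the 0-week controls read 1.08, 3.64 and 2.56 CPM. The 2 h group overlapped the controls and the 24 h group did not. At 3 weeks Dtx3l read 7.88, 4.96 and 17.4 CPM at 0 h, 25.2, 51.2 and 20.8 CPM at 2 h, and 9.61, 6.19 and 2.28 CPM at 24 h. The 2 h group was above both of its neighbours. In CT26, Dtx3l ran from 1.41 to 5.36 CPM in controls and from 0.942 to 31.8 CPM in IFNγ samples, with 27 of 33 above every control. At 3 weeks CT26 read 10.4, 27.9 and 6.62 CPM at 0 h, 27.0, 31.8 and 26.7 CPM at 2 h and 11.6, 12.9 and 25.3 CPM at 24 h. The 0 h and 24 h groups overlapped. Where Parp9 and Dtx3l overlap, reads can be split between them only by strand, and whether the counting used strand is not given in the sources used here. Parp9 also overlaps the antisense gene Gm15564 by 5854 bases, which held 188 counts over all samples beside 2106 for Parp9.

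**Figure D2:**
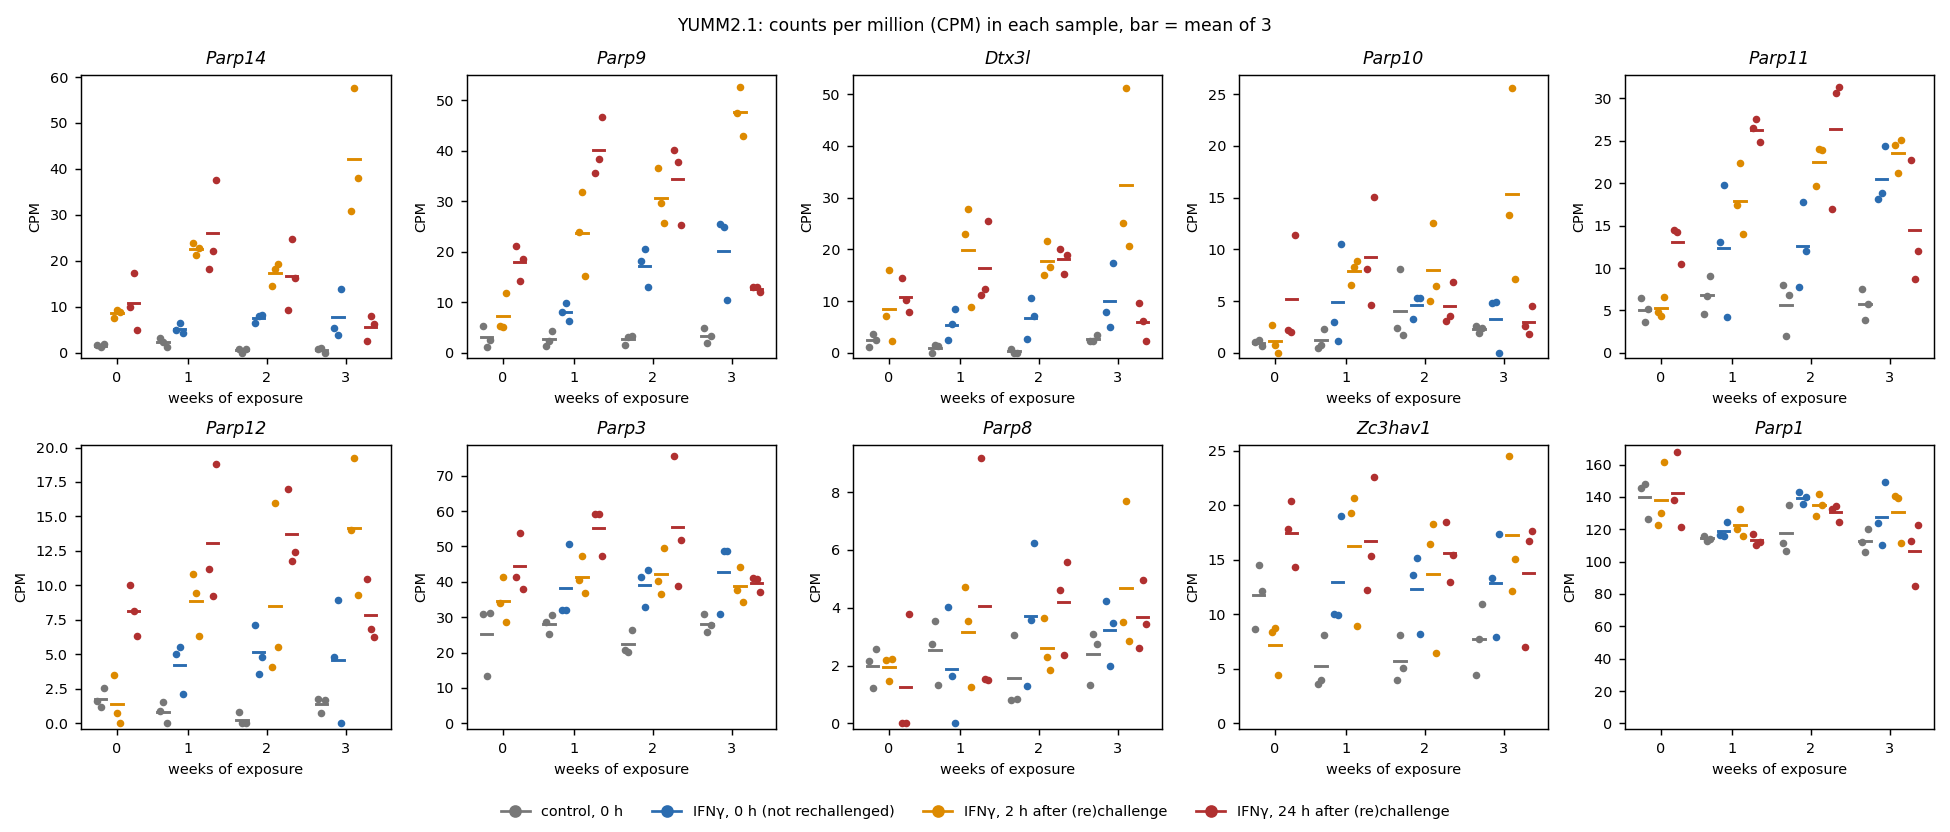
CPM of the 10 members in every YUMM2.1 sample, plotted against weeks of exposure, 1 panel a gene with its own axis from 0. Points are samples (grey control, blue IFNγ at 0 h, orange 2 h and red 24 h after fresh IFNγ) and bars are means of 3. Parp14 has its highest mean 2 h after rechallenge at 3 weeks (30.8 to 57.7 CPM), and Parp1 stays between 84.8 and 168 CPM in all groups.

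Parp12, a zinc finger PARP found at the Golgi, ran from 0 to 2.56 CPM in YUMM2.1 controls and from 0 to 19.2 CPM in IFNγ samples, with 29 of 33 above every control. In naive YUMM2.1 cells it read 3.53, 0.726 and 0 CPM at 2 h and 10.0, 8.14 and 6.31 CPM at 24 h. At 2 h it overlapped the 0-week controls (1.62, 1.21 and 2.56 CPM) and at 24 h it did not. Parp12 in CT26 ran from 0.589 to 4.95 CPM in controls and from 0 to 33.9 CPM in IFNγ samples. At 3 weeks without rechallenge CT26 read 26.1, 25.6 and 9.93 CPM for Parp12 against 1.62, 0.732 and 1.46 CPM in the 3-week controls. That group was also above all of the 2-week samples without rechallenge (2.66, 7.54 and 4.58 CPM).

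Parp11, a PARP of the nuclear envelope, was the only member for which all 33 IFNγ samples of a line exceeded all 12 controls, which was the case in CT26 (6.3 to 42.4 CPM against 2.28 to 6.19 CPM). The margin was narrow. In CT26 without rechallenge Parp11 read 17.0, 13.4 and 9.39 CPM at 1 week, 12.4, 15.1 and 6.3 CPM at 2 weeks, and 36.5, 26.7 and 6.62 CPM at 3 weeks, the last from the sample of low total. After 24 h of rechallenge at 3 weeks it read 42.4, 26.7 and 36.7 CPM. In YUMM2.1, Parp11 ran from 2.03 to 9.07 CPM in controls and from 4.22 to 31.3 CPM in IFNγ samples, with 27 of 33 above every control. Naive YUMM2.1 cells read 4.86, 4.35 and 6.63 CPM at 2 h, which overlapped the controls, and 14.5, 14.2 and 10.5 CPM at 24 h, which did not. Parp11 thus had the later timing of Parp9 and Parp12 in naive YUMM2.1 cells, although 24 h less 2 h was not called for any of them.

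Parp10, a transferase with RNA- and ubiquitin-binding regions, was sparse in YUMM2.1. It ran from 0.457 to 8.12 CPM in controls and from 0 to 25.6 CPM in IFNγ samples, and only 9 of 33 exceeded every control. The highest Parp10 control (8.12 CPM) was 1 sample at 2 weeks. Parp10 was separated better in CT26, where controls ran from 0.673 to 4.39 CPM and 29 of 33 IFNγ samples (1.69 to 34.0 CPM) exceeded every control. Naive CT26 cells at 24 h read 11.8, 1.69 and 25.1 CPM for Parp10, so that 1 sample was below the 0-week controls (3.52, 3.71 and 3.53 CPM). Parp10 overlaps Plec by 1401 bases on the same strand, and Plec held 21755 counts over all samples beside 932 for Parp10, so its level is uncertain.

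Zc3hav1, which binds viral RNA, was read in every sample, and its control and IFNγ ranges overlapped in both lines. In YUMM2.1 it ran from 3.65 to 14.5 CPM in controls and from 4.42 to 24.5 CPM in IFNγ samples, with 17 of 33 above every control. The naive YUMM2.1 samples at 2 h (8.39, 8.71 and 4.42 CPM) were not above the 0-week controls (8.66, 14.5 and 12.1 CPM). In CT26 Zc3hav1 ran from 5.7 to 23.0 CPM in controls and from 12.8 to 53.8 CPM in IFNγ samples. Among the CT26 groups without rechallenge, the gap to the controls of the same week was widest at 3 weeks. The samples read 40.9, 51.3 and 23.2 CPM, the last from the sample of low total, against 13.0, 14.6 and 8.77 CPM in controls.

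Parp3, which acts at DNA breaks, was above every control sample in most IFNγ samples of both lines. In YUMM2.1, 31 of 33 IFNγ samples (28.7 to 75.6 CPM, median 41.1) exceeded all 12 controls (13.3 to 31.3 CPM, median 27.1). The highest group means were those rechallenged for 24 h at 1 week (59.1, 59.1 and 47.4 CPM) and at 2 weeks (75.6, 38.9 and 51.9 CPM), and both overlapped other IFNγ groups. Parp3 in CT26 ran from 2.28 to 8.61 CPM in controls and from 1.69 to 17.3 CPM in IFNγ samples, with 23 of 33 above every control. After 1 week without rechallenge all 3 CT26 samples were above all 3 controls of that week, by log2 1.32 ± 0.45 (SE), and after 2 weeks likewise by log2 1.04 ± 0.40, and neither difference was called (adjusted p = 0.315 and 0.272, edgeR). Naive CT26 cells at 24 h went the other way in 2 of 3 samples (1.96, 1.69 and 6.63 CPM against 5.63, 6.8 and 6.48 CPM in 0-week controls), a difference that was not called. Parp3 overlaps Rrp9 on the opposite strand by 987 bases, with 1869 counts for Rrp9 and 3038 for Parp3 over all samples.

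Parp8, a little-studied member of the branch for single ADP-ribose units, did not reach the count filter in either line and was not tested within a line. It ran from 0.803 to 3.55 CPM in YUMM2.1 controls (median 2.36) and from 0 to 9.17 CPM in IFNγ samples (median 2.86). In CT26 it ran from 0 to 3.09 CPM in controls (median 1.43) and from 0 to 6.68 CPM in IFNγ samples (median 1.83). The ranges overlapped in both lines, and the largest count of Parp8 in any sample was 13.

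Parp1 was read at 106.0 to 148 CPM in YUMM2.1 controls (median 115) and at 84.8 to 168 CPM in IFNγ samples (median 124). In CT26 it was read at 185 to 266 CPM in controls (median 221) and at 123 to 275 CPM in IFNγ samples (median 194). Of the 33 CT26 samples with IFNγ, 14 were below every control and 1 was above. In none of the 15 comparisons of single groups in either line was Parp1 called.

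**Figure D3:**
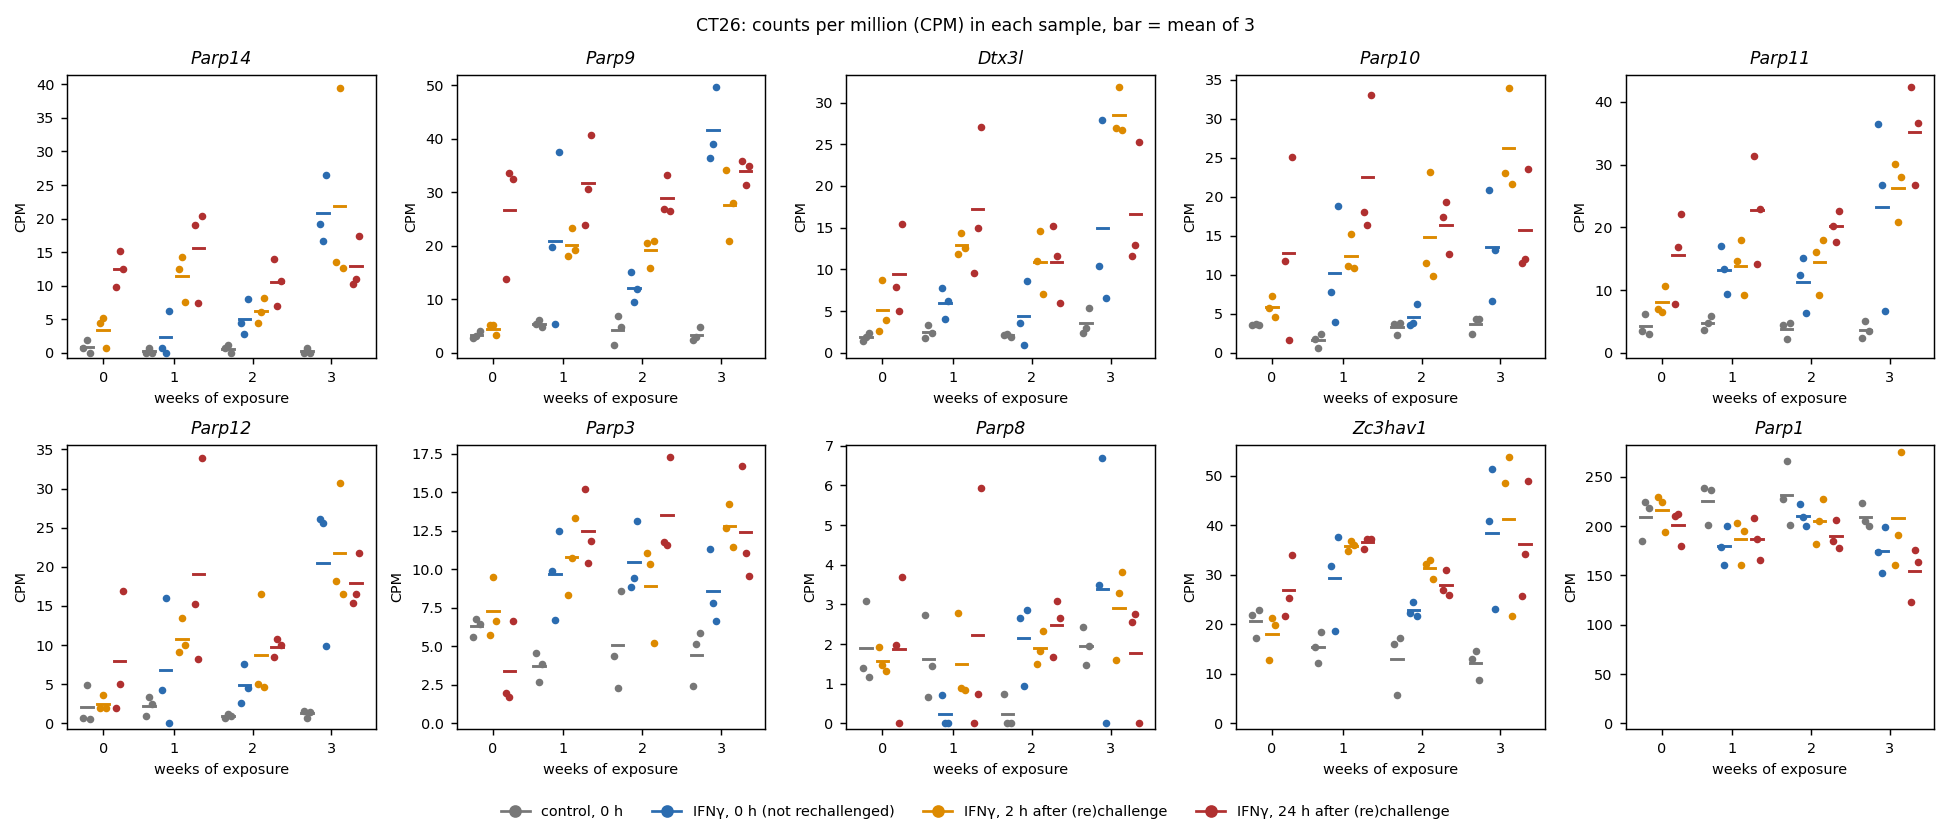
CPM of the 10 members in every CT26 sample, with the same axes, colours and bars as for YUMM2.1. Parp14, Parp9 and Zc3hav1 reach high values at 3 weeks without rechallenge (16.7 to 26.5, 36.5 to 49.6 and 23.2 to 51.3 CPM), while Parp8 stays below 7 CPM.

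The first question of the design was how naive cells responded. After 2 h, 0 of 9 tested members were called in YUMM2.1 (0.24% of all genes called) and 0 of 9 in CT26 (0.235%), by edgeR as by DESeq2, and 3 members in each line had an unadjusted p below 0.05. After 24 h in YUMM2.1, Parp14 (log2 2.52 ± 0.57, SE, adjusted p = 0.00902) and Parp9 (log2 2.35 ± 0.41, adjusted p = 0.000138) were called higher by edgeR, with 0.855% of all genes called higher. After 24 h in CT26, 5 of 9 tested members were called higher, with 1.77% of all genes. These were Parp14 (log2 3.74 ± 0.74), Parp9 (log2 3.01 ± 0.40), Dtx3l (log2 2.44 ± 0.62), Parp10 (log2 2.04 ± 0.52) and Parp11 (log2 1.99 ± 0.44). Over the 9 tested members the median log2 fold change at 24 h was 2.02 in YUMM2.1 and 2.04 in CT26, beside 0.02 and -0.02 over all genes. Between 2 h and 24 h itself, a comparison added after the data had been seen, Parp9 rose in CT26 (log2 2.60 ± 0.39, adjusted p = 5.6e-06, edgeR), where 1.33% of all genes rose. No member was called in that comparison in YUMM2.1, where 0.563% of genes were called and 5 of 9 members had an unadjusted p below 0.05. The naive 24 h call of Parp14 was lost without replicate 1 in both lines (adjusted p = 0.296 in YUMM2.1 and 0.0646 in CT26) and without replicate 2 in YUMM2.1 (adjusted p = 0.409). In CT26 the calls of Dtx3l, Parp10 and Parp11 were lost without replicate 1 or without replicate 3.

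The second question was what continuous exposure did without fresh IFNγ, against the control of the same week. In YUMM2.1 similar numbers of members were called at 2 and at 3 weeks (4 and 3 of 9). In CT26 most calls came at 3 weeks (7 of 9). No member was called for a difference between the lines in the 3-week response. In YUMM2.1, 0 of 9 members were called at 1 week by edgeR or DESeq2 (0.73% of genes called in either direction), while 6 had an unadjusted p below 0.05 and the median log2 fold change was 1.29 over the 9 members and 0.0045 over all genes. At 2 weeks 4 were higher (0.897% of genes), namely Parp14, Parp9, Dtx3l and Parp12. Parp9 rose by log2 2.63 ± 0.45 (SE, adjusted p = 0.000109, edgeR). The other 3 had control sums of 2, 1 and 1 counts, so their fitted values depend on the prior count, and the ratios of pooled CPM were 12.9 for Parp14 (95% interval 3.33 to 111), 22.2 for Dtx3l (3.71 to 907) and 17.9 for Parp12 (2.94 to 737). These intervals cover counting error only. At 3 weeks 3 members were higher (0.72% of genes): Parp14 (log2 3.06 ± 0.68), Parp9 (log2 2.73 ± 0.37) and Parp11 (log2 1.76 ± 0.38). The 2-week calls of Parp14, Dtx3l and Parp12 were lost whichever replicate was left out, those of Parp14 and Parp12 also under DESeq2 (adjusted p = 0.0575 and 0.0958), and that of Parp9 without replicate 1 (adjusted p = 0.0572). The 3-week call of Parp9 was kept in all 3 cases, and that of Parp14 was lost without replicate 1 (adjusted p = 0.136) or replicate 3 (adjusted p = 0.343). That of Parp11 was lost without replicate 2 (adjusted p = 0.152) or replicate 3 (adjusted p = 0.134).

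In CT26, continuous exposure moved the members most at 3 weeks. At 1 week Parp9 alone was called (log2 1.73 ± 0.41, SE, adjusted p = 0.0154, edgeR, with 0.658% of genes higher), and that call was lost without the samples of low total (log2 1.35, adjusted p = 0.188), without replicate 1 (adjusted p = 0.521) or without replicate 3 (adjusted p = 0.622). At 2 weeks 0 of 9 members were called (1.67% of genes called), while 6 had an unadjusted p below 0.05 and DESeq2 called 1. At 3 weeks 7 of 9 were higher, with 3.44% of genes, and the median log2 fold change was 2.09 over the 9 members and 0.02 over all genes. Parp14 had 45 counts against 1 in the controls, a ratio of 89.0 in pooled CPM (95% interval 15.2 to 3594). Parp12 rose by log2 4.04 ± 0.69, Parp9 by 3.44 ± 0.38 and Parp11 by 2.85 ± 0.43. Dtx3l rose by log2 2.09 ± 0.53, Parp10 by 1.85 ± 0.54 and Zc3hav1 by 1.80 ± 0.31. Parp3 and Parp1 were not called. The calls of Parp14, Parp9, Parp11, Parp12 and Zc3hav1 were kept under every alternative that gave a value, while Dtx3l was lost without replicate 1 or 2 and Parp10 without replicate 1.

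The step from 2 to 3 weeks of IFNγ was tested on its own. In CT26, Parp9 (log2 1.71 ± 0.33, SE, adjusted p = 0.000873), Parp12 (log2 2.21 ± 0.58, adjusted p = 0.0231), Parp14 (log2 1.84 ± 0.54, adjusted p = 0.046) and Parp11 (log2 1.33 ± 0.37, adjusted p = 0.0354) were higher at 3 weeks by edgeR, where 1.6% of genes were higher. In YUMM2.1, 0 of 9 members were called by edgeR or DESeq2 or had an unadjusted p below 0.05, and 0.073% of genes were called. The CT26 call of Parp14 was lost without the samples of low total (adjusted p = 0.0801), and those of Parp14 and Parp12 were lost without replicate 1 (adjusted p = 0.333 and 0.332) or replicate 2 (adjusted p = 0.254 and 0.0506). That of Parp11 was lost whichever replicate was left out, and with only the compared groups in the fit (adjusted p = 0.174). No member was called between controls at 3 weeks and 0 weeks, where 0.521% of genes were called in YUMM2.1 and 0.916% in CT26, and 1 of 9 members in each line had an unadjusted p below 0.05.

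The third question was what fresh IFNγ added to cells already exposed. The comparisons at 1 week share the same 0 h samples, as do those at 2 and at 3 weeks. In YUMM2.1 at 1 week, 2 h of rechallenge raised Parp14 (log2 2.02 ± 0.42, SE, adjusted p = 0.00497, edgeR), Parp9 (log2 1.52 ± 0.34) and Dtx3l (log2 2.17 ± 0.55), with 0.501% of genes higher. Rechallenge for 24 h at 1 week raised Parp14 (log2 2.23 ± 0.42) and Parp9 (log2 2.23 ± 0.33), with 1.12% of genes higher, and that of Parp14 was lost without replicate 1 (adjusted p = 0.0544) or 3 (adjusted p = 0.0552). At 2 weeks no member was called by edgeR or DESeq2 at 2 h (0.428% of genes called) or 24 h (0.615%), although 4 and 6 of 9 had an unadjusted p below 0.05. At 3 weeks 2 h of rechallenge raised Parp14 (log2 2.80 ± 0.44, adjusted p = 3.91e-05) and Dtx3l (log2 1.99 ± 0.53, adjusted p = 0.0457), with 0.876% of genes higher, and 24 h raised none. That 24 h comparison called no gene at all (0%), with 351 genes at an unadjusted p below 0.05 and 1 gene called by DESeq2. The Dtx3l call at 3 weeks was lost with the replicate number as a block (adjusted p = 0.0532) and without replicate 1 (adjusted p = 0.343) or 2 (adjusted p = 0.71). At 1 week and 2 h the 3 members were all lost without replicate 1 and without replicate 2. With only the compared groups in the fit, Parp9 and Dtx3l at 1 week and Dtx3l at 3 weeks were also lost.

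In CT26, rechallenge gave few calls among the members. No member was called at 2 h after 1 week (0.376% of genes called), 2 weeks (0.305%) or 3 weeks (0.0117%), nor at 24 h after 3 weeks (0%), by edgeR or DESeq2. The members with an unadjusted p below 0.05 were 1, 3 and 0 of 9 at 2 h and 0 of 9 at 24 h after 3 weeks, where 439 genes had one. At 24 h after 1 week Parp14 was called higher, with 0.928% of genes. It had 3 counts at 0 h, and the ratio of pooled CPM was 12.5 (95% interval 4.06 to 62.6). At 24 h after 2 weeks Parp9 rose by log2 1.23 ± 0.31 (SE, adjusted p = 0.0478, edgeR), with 0.599% of genes higher. This Parp9 call was lost under library totals alone (adjusted p = 0.059) and whichever replicate was left out, and that of Parp14 was lost without replicate 1 (adjusted p = 0.457).

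**Figure D4:**
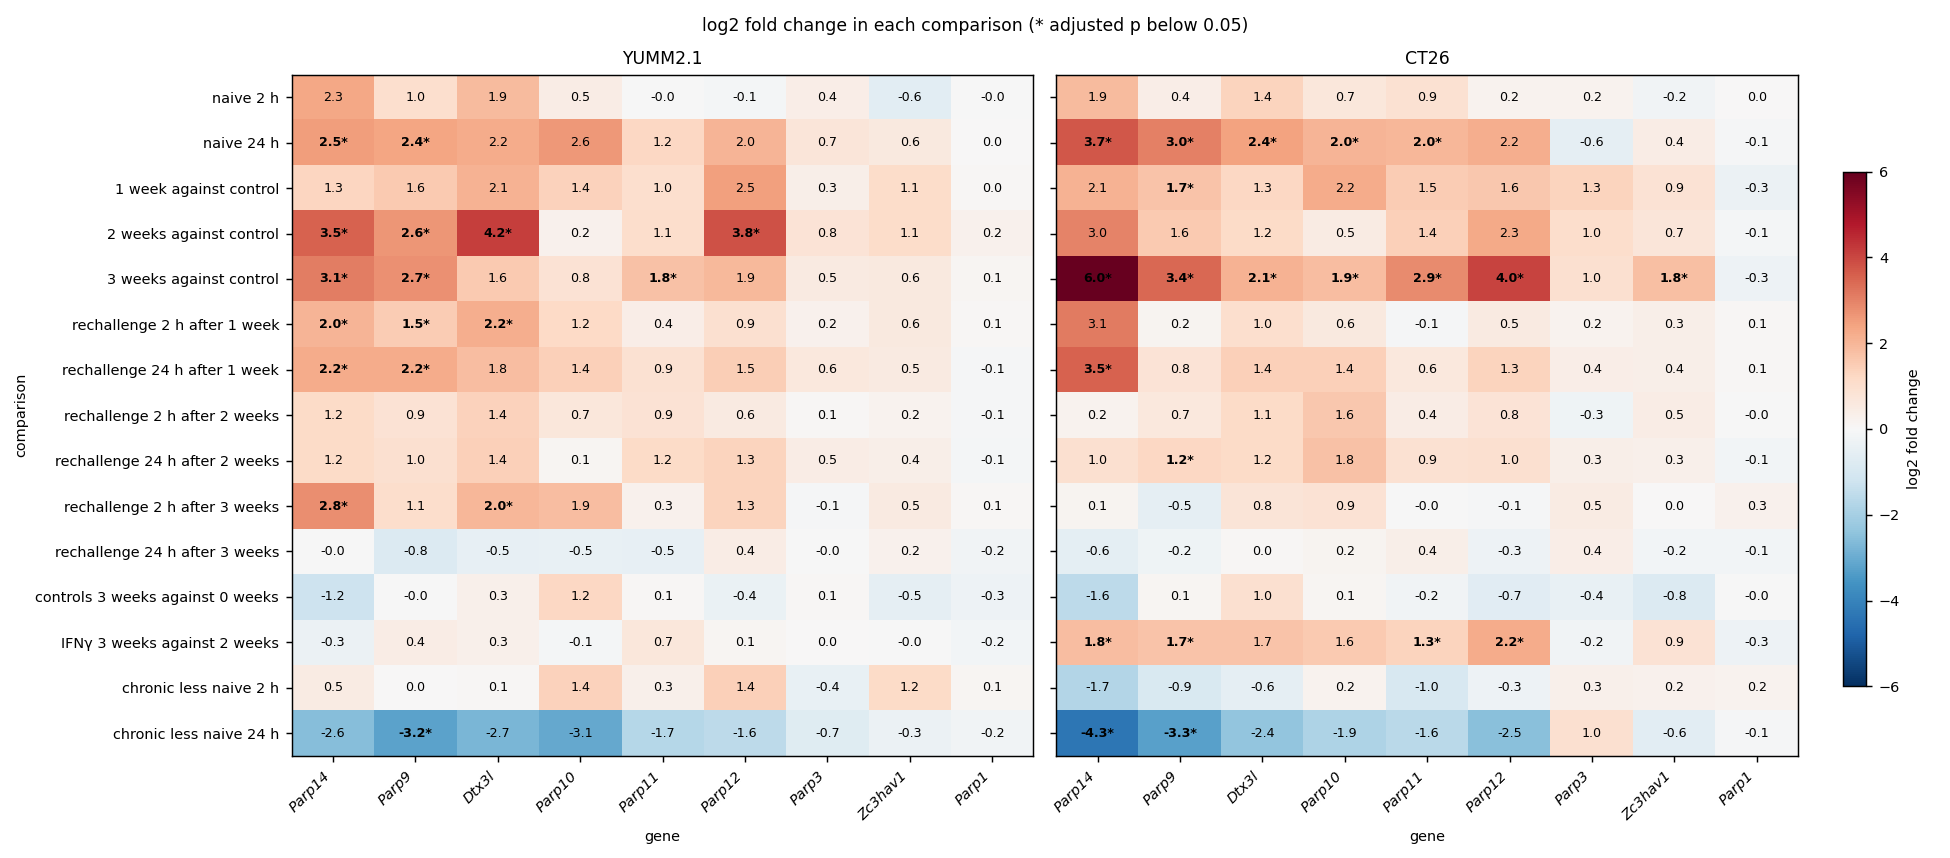
Heat map of log2 fold changes of the 9 tested members (columns) in 15 comparisons (rows) for each line, with an asterisk where the adjusted p was below 0.05. In CT26 at 3 weeks 7 members carry an asterisk, and in YUMM2.1 the most in a comparison is 4, at 2 weeks.

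The response to 24 h of IFNγ was smaller in cells exposed for 3 weeks than in naive cells, tested as the difference of the responses. The 3-week response was taken from cells already in IFNγ. For Parp9 the difference was log2 -3.19 ± 0.53 in YUMM2.1 (SE, adjusted p = 8.41e-05, edgeR) and log2 -3.25 ± 0.51 in CT26 (adjusted p = 1.57e-05). In CT26 the Parp9 levels without fresh IFNγ lay apart and those at 24 h overlapped. They went from 2.81, 3.09 and 4.12 CPM to 13.7, 33.7 and 32.4 CPM in naive cells, and from 36.5, 39.0 and 49.6 CPM to 36.0, 31.3 and 34.9 CPM at 3 weeks. In YUMM2.1 the Parp9 levels without fresh IFNγ also lay apart (1.21 to 5.42 CPM in naive cells, 10.4 to 25.5 CPM at 3 weeks). Those at 24 h did not overlap there (14.2 to 21.2 CPM in naive cells, 12.0 to 13.1 CPM at 3 weeks). Parp14 was called in CT26 (log2 -4.33 ± 0.90, adjusted p = 0.00228) and not in YUMM2.1 (log2 -2.55 ± 0.80, adjusted p = 0.242). The CT26 call of Parp14 was lost without replicate 1 (adjusted p = 0.199). Of all genes, 0.615% were called lower in this comparison in YUMM2.1 and 1.09% in CT26. For the 2 h response no member was called by edgeR or DESeq2 or had an unadjusted p below 0.05, with 0.115% of genes called in YUMM2.1 and 0.211% in CT26.

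Between 2 h and 24 h after rechallenge at 3 weeks, 4 members fell in YUMM2.1, in a comparison added after the data had been seen. Parp14 fell by 2.83 ± 0.39 on the log2 scale (SE, adjusted p = 1.72e-06, edgeR), Dtx3l fell by 2.50 ± 0.50 (adjusted p = 0.00178), Parp10 fell by 2.30 ± 0.64 (adjusted p = 0.0499) and Parp9 fell by 1.91 ± 0.30 (adjusted p = 4.09e-05). In each of the 4, every 24 h sample was below every 2 h sample. Of all genes, 1.14% were called lower. Parp11 (log2 -0.75 ± 0.33), Parp12 (log2 -0.88 ± 0.50), Zc3hav1 (log2 -0.27 ± 0.38) and Parp3 (log2 0.02 ± 0.22) were not called. The falls of Parp14 and Parp9 were kept under all 9 alternatives, while those of Dtx3l (adjusted p = 0.2) and Parp10 (adjusted p = 0.718) were lost without replicate 2, and that of Parp10 also without replicate 1. In CT26 no member was called by edgeR or DESeq2 (0.0352% of genes called) and 1 of 9 had an unadjusted p below 0.05, and Parp14 had log2 -0.72 ± 0.47.

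The lines were then compared in a fit of all 90 samples, in which Parp8 passed the count filter. In 0-week controls Parp3 was lower in CT26 by log2 -1.87 ± 0.29 (SE, adjusted p = 1.25e-07, edgeR), and Parp1 (log2 0.77 ± 0.13), Zc3hav1 (log2 1.05 ± 0.34) and Parp10 (log2 2.00 ± 0.86, adjusted p = 0.0496) were higher. Of all genes, 20.1% were called higher in CT26 and 25.9% lower. The 4 of 10 members called stood beside 46% of all genes called in either direction, a share near this background. The Parp10 difference was lost whichever replicate was left out and with library totals alone, and that of Zc3hav1 without replicate 1 (adjusted p = 0.175). The IFNγ responses of the lines gave no call for any member in the naive 24 h response (0.087% of genes called) or in the 3-week response (0.106%), by edgeR or DESeq2, and 1 and 2 of 10 members had an unadjusted p below 0.05. Parp14 differed at 3 weeks by log2 3.06 ± 1.42 (adjusted p = 0.737), which leaves a wide interval.

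Rechallenge for 2 h at 3 weeks was compared between lines after the data had been seen. Parp14 had a response smaller in CT26 by log2 -2.63 ± 0.65 (SE, adjusted p = 0.0545, edgeR), and Parp9 by log2 -1.56 ± 0.42 (adjusted p = 0.143), with 0.193% of genes called in either direction. Neither passed the threshold. For Parp14 the value passed under DESeq2 (adjusted p = 0.028) and with no filter on low counts (adjusted p = 0.0115). The mean response over all IFNγ groups gave no call for a member by edgeR (0.87% of genes called). DESeq2 called 1, the reference member Parp1 (log2 -0.285 ± 0.083, adjusted p = 0.0291). The largest differences by edgeR were Dtx3l (log2 -1.01 ± 0.49, adjusted p = 0.575) and Parp14 (log2 0.82 ± 0.61, adjusted p = 0.801).

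The members were ordered by the likeness of their pattern to Parp14, as Pearson's r over the 15 group means of log2 CPM in each line (prior count 2). These points share the line, the library preparation and the IFNγ schedule, and r is a description. In YUMM2.1, Dtx3l (0.948) and Parp9 (0.936), its neighbours on chromosome 16, came first among the members, followed by Parp12 (0.855), Parp11 (0.85), Parp3 (0.818), and Parp10 and Zc3hav1 (0.753 each). In CT26, Parp12 (0.944) came first, then Parp9 (0.915), Dtx3l (0.906), Parp11 (0.906), and Parp10 and Zc3hav1 (0.879 each). Without the samples of low total this order changed in CT26: Parp9 (0.916) came first and Parp12 (0.852) last of these 6. Parp3 was less like Parp14 in CT26 (0.599) than these, and Parp8 had 0.477 in YUMM2.1 and 0.482 in CT26. Parp1 had 0.271 in YUMM2.1 and -0.614 in CT26.

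Ranked among the other tested genes by the same r, Dtx3l was number 2 and Parp9 number 12 of 9588 in YUMM2.1, and Parp1 was number 2507. In CT26, Parp12 was number 14, Parp9 number 43 and Dtx3l number 58 of 8515, and Parp1 was number 7737. Without the samples of low total Parp12 in CT26 moved to number 115 and Parp9 to number 21, and Parp9 in YUMM2.1 moved to number 37. The nearest genes outside the members in YUMM2.1 were Rtp4 (0.957), Gm12250 (0.948), Gm4951 (0.946), Ifi203 (0.946) and Gm7967 (0.944). In CT26 they were Gbp9 (0.98), Gm8995 (0.974), Gbp2b (0.967), Gm4841 (0.957) and Iigp1 (0.956).

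Parp1 served as a reference within each sample. In CT26 Parp1 itself was somewhat lower with IFNγ in the mean response (0.872-fold, a call lost under some alternatives), which raises the ratios there. The log2 ratio of Parp14 to Parp1 in YUMM2.1 had a median of -5.68 in controls and -3.31 in IFNγ samples, and 32 of 33 IFNγ samples were above every control. In CT26 the medians were -6.80 and -4.21, with 30 of 33 above every control. The CT26 controls held 0 to 3 counts of Parp14, so their ratios depend on the prior count of 2. For Parp11, 28 of 33 were above in YUMM2.1 and 33 of 33 in CT26, and for Parp9 the counts were 31 and 30. Parp10 had 6 of 33 above in YUMM2.1 and 30 of 33 in CT26. For Parp8 the counts were 9 and 11. The ratios follow each gene between samples and do not rank genes by level.

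Some genes in the rest of the ADP-ribosylation system were called. A list of 37 genes held other writers (such as Parp2, Tiparp and the tankyrases), erasers and readers, the Deltex family and the enzymes of NAD synthesis, and those that passed the count filter were 22 in YUMM2.1 and 17 in CT26. In the mean response 2 of 22 were higher in YUMM2.1, with a list median of log2 0.01, where 5.38% of all genes were higher. In CT26 3 of 17 were higher and 1 was lower, with a list median of log2 0.11, where 6.29% of all genes were higher and 7.87% lower. Nampt, the rate-limiting enzyme of NAD salvage, was higher in both lines (log2 0.64 ± 0.11, SE, in YUMM2.1 and 0.59 ± 0.08 in CT26). In CT26 Nampt was also higher at 24 h in naive cells (log2 0.92 ± 0.20, adjusted p = 0.00268, edgeR) and at 3 weeks (log2 1.16 ± 0.21). Tiparp, a transferase induced through the aryl hydrocarbon receptor, was higher in the CT26 mean response (log2 0.46 ± 0.06), but it also rose in CT26 controls from 0 to 3 weeks (log2 0.91 ± 0.15, adjusted p = 0.000373). Adprs, which removes ADP-ribose from serine, was higher in CT26 (log2 0.71 ± 0.23), and Nmrk1, a nicotinamide riboside kinase, was lower (log2 -0.22 ± 0.06). Art3 was higher in YUMM2.1 (log2 1.05 ± 0.33, adjusted p = 0.0327), but it overlaps the IFNγ-induced chemokine gene Cxcl10 on the opposite strand by 2252 bases, with 245 counts for Art3 and 1752 for Cxcl10 over all samples. At 3 weeks in YUMM2.1, none of the 22 was called, where 0.97% of all genes were called in either direction.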

How the data were processed

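The samples were 3′ digital gene expression libraries of YUMM2.1 and CT26 cells. The authors deposited raw whole-number counts per gene, made with Salmon 0.13.1 on mm10 (submitters' processing notes) and tximport. The study discarded a few samples without naming them, and all 90 deposited samples were kept here. Ensembl identifiers were matched to symbols through GENCODE (53668 of 53697 rows). Counts were filtered by group (filterByExpr), scaled by TMM and fitted with edgeR 4.0.16 (R 4.3.3, limma 3.58.1) over the 15 groups of a line, or 30 groups for comparisons between lines, with Benjamini-Hochberg adjustment over all genes. This left 9589 genes in YUMM2.1, 8516 in CT26 and 10339 for both lines. CPM (counts scaled to the TMM-adjusted total) were computed, and log2 CPM used a prior count of 2. Each line had 15 comparisons, with 3 more added after the data were seen. Between lines there were 3 comparisons, with 2 more added. DESeq2 1.42.0, library totals alone, no filter, fits of the compared groups alone, a replicate block, leaving out each replicate and leaving out samples of low total were the alternatives. The genes named were the 10 members, called genes of the 37-gene list, and the 5 genes nearest to Parp14 in each line. The members and lists were chosen with earlier results of these data known. Totals per sample set the precision, and intervals cover counting error only. The fits were tested on simulated data.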

Additional observations from a re-analysis of the deposited data

Results flagged for a closer look

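The smaller 24 h response in cells exposed for 3 weeks was picked out because the naive and the 3-week responses differed in a test of the difference itself (edgeR's quasi-likelihood interaction, Benjamini-Hochberg over all genes). Parp14 in CT26 had a difference of log2 -4.33 ± 0.90 (SE, adjusted p = 0.00228), with 4 counts over the 3 naive controls. Parp9 had differences of log2 -3.25 ± 0.51 in CT26 (adjusted p = 1.57e-05) and log2 -3.19 ± 0.53 in YUMM2.1 (adjusted p = 8.41e-05). The 3-week group at 0 h held 1 sample of low total in each line, and the 3 calls were kept without these samples. That of Parp14 was lost without replicate 1 (adjusted p = 0.199).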

How the results depend on the processing

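Of the 64 member values called in the main analysis, 61 stayed called with library totals alone, 64 with no filter on low counts, 63 with a replicate block, 62 without the samples of low total, 59 of the 61 with a value under DESeq2, and 29 of the 33 with a value when only the compared groups were fitted. Without replicate 1, 2 or 3 of every group, 34, 46 and 51 stayed. None of these 64 values changed direction. Among values not called, 135 of the 3165 alternative member fold changes had the opposite sign. Where a call was lost the cause was not tested, and the fits without a replicate also had fewer samples. The median control count was 19 or lower for all members but Parp1 and, in YUMM2.1, Parp3. An effect of depth was not tested. Whether the replicate numbers pair the samples was not settled. Deviations of same-numbered samples had a mean correlation of -0.001 in YUMM2.1 and 0.00795 in CT26, beside 0.000649 and -0.00395 for other pairs. Of 315 same-numbered pairs, 24 in YUMM2.1 and 44 in CT26 were over 0.1, with maxima of 0.372 and 0.383. These means run over all groups, and pairing within some groups was not tested. The replicate block moved the number of members called from 2 to 1 at 2 h of rechallenge at 3 weeks in YUMM2.1, and moved no other such number by over 1.5 times. The other numbers of members called that moved so were as follows. Under DESeq2, the YUMM2.1 2-week number went from 4 to 2, the CT26 2-week number from 0 to 1, and the CT26 naive 24 h less 2 h number from 1 to 0. In the last of these Parp9 had no adjusted p under DESeq2, so its call was not tested there. The numbers between lines went from 0 to 1 under DESeq2 for 2 h of rechallenge at 3 weeks and for the mean response. With library totals alone, CT26 went from 0 to 1 at 2 weeks and from 1 to 0 at 24 h of rechallenge at 2 weeks. With no filter, YUMM2.1 at naive 2 h went from 0 to 1, CT26 from 0 to 1 at 2 weeks and at 2 h of rechallenge at 1 and 2 weeks, from 1 to 2 at 24 h of rechallenge at 2 weeks and for naive 24 h less 2 h, and 2 h of rechallenge at 3 weeks between lines from 0 to 1. With only the compared groups, where fewer members passed the filter, YUMM2.1 went from 2 to 1 at naive 24 h, 4 to 1 at 2 weeks, 3 to 1 at 2 h of rechallenge at 1 week and 2 to 1 at 3 weeks, and CT26 from 5 to 3 at naive 24 h, 1 to 0 at 1 week, 7 to 4 at 3 weeks, and at 24 h of rechallenge 1 to 0 at 1 week and 1 to 2 at 2 weeks. This fit was not run for the mean response. Without the samples of low total, YUMM2.1 went from 0 to 1 at 1 week, and CT26 from 1 to 0 at 1 week and from 0 to 1 at 2 weeks and at 2 h of rechallenge at 1 week.

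Leaving out a replicate gave, in YUMM2.1, 1 to 2 members at naive 24 h, 0 to 1 at 1 week, 0 to 1 at 2 weeks, 1 to 2 at 3 weeks, 0 to 3 and 1 to 2 at 2 h of rechallenge at 1 and 3 weeks, 1 to 2 at 24 h of rechallenge at 1 week, and 2 to 5 for 24 h less 2 h at 3 weeks. In CT26 it gave 1 to 6 at naive 24 h, 0 to 1 at 1 week, 0 to 1 at 2 weeks, 0 to 1 at 2 h and 0 to 2 at 24 h of rechallenge at 1 week, 0 to 2 at 24 h of rechallenge at 2 weeks, 1 to 4 for 3 against 2 weeks, 1 to 3 for the 24 h response against naive, and 1 to 2 for naive 24 h less 2 h, and 2 to 3 between lines in 0-week controls. Of 366 counts of all genes called, 132 moved by over 1.5 times. For CT26 at 3 weeks, 616 genes became 282 with only the compared groups. The 72 values of r stayed within the 95% interval of r, which was computed as if the 15 group means were independent. That interval also covered the change of Parp12 in CT26 from 0.944 to 0.852 without the samples of low total. It therefore cannot test the order of the members by r.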
